A study of Homo sapiens with 8 samples.

Results

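The genes described here encode intermediate filament proteins and were followed in BEAS-2B, a virally immortalised cell line from human bronchial epithelium that serves as a model of the airway lining. They are VIM, NES and the keratins KRT5, KRT7, KRT8, KRT14, KRT17, KRT18, KRT19 and KRT80. These 10 genes were chosen by name, and all of them were found among the 25411 genes that RNA-Seq measured in 8 libraries. The libraries fell into 4 groups of 2 biological replicates. Untreated cells (UT) were the control, and the nickel-exposed group (Ni-E) spent 6 weeks in 100 µM NiCl2, a soluble nickel salt. Nickel-washed-out cells (Ni-W) had received the same exposure and were then grown for over 6 months in medium without nickel. Ni-W cells came from a single colony, so that the choice of a clone and the removal of nickel cannot be told apart. The treatment text of the last group, HCl3, was that of Ni-W, with no time without nickel and no relation to Ni-W given. Ni-E carried experiment number 2 and HCl3 the numbers 3 and 4, with none for UT and Ni-W, so experiment and group cannot be told apart either.

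Intermediate filaments are the tough, rope-like fibres of the cytoskeleton. Each subunit has a long α-helical rod through which it pairs with a partner, and the sequence at the start of the rod is among the best conserved of the family. Keratins are obligate partners: a type I chain (here KRT14, KRT17, KRT18 and KRT19) assembles only with a type II chain (KRT5, KRT7, KRT8 and KRT80). KRT8 and KRT18 form the basic pair of simple epithelia, KRT7 and KRT19 accompany them in ducts and airways, and KRT5 and KRT14 form the pair of basal cells in stratified and bronchial epithelium. KRT17 is known from basal-like and injured epithelium, and KRT80 from a range of differentiating epithelia. VIM (vimentin) is the filament of mesenchymal cells and of most epithelial cells once they are in culture, and NES (nestin), a very large subunit best known from neural stem cells, co-assembles with vimentin. Loss of keratins with gain of vimentin is a common sign of an epithelial to mesenchymal transition.

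To show how the members resemble each other, the 45 coding bases at the start of the rod are given for 8 of them, read from GENCODE transcripts on GRCh38. Capitals mark the 14 bases that are identical in all 8.
VIM: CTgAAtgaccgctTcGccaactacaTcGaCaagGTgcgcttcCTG
NES: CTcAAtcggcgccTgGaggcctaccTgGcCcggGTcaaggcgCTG
KRT5: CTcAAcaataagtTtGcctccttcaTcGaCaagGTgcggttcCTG
KRT80: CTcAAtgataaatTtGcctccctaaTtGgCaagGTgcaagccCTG
KRT14: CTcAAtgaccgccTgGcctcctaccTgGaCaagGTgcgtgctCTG
KRT17: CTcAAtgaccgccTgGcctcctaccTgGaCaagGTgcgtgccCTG
KRT18: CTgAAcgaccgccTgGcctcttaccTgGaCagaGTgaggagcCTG
KRT19: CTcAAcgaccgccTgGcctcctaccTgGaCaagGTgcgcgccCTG
In KRT5 and KRT80, which are type II chains, these bases cross an exon junction. In the 6 others shown they lie within a single coding exon, for example in exon 2 of VIM (chr10:17229750-17229794, plus strand) and in exon 1 of KRT17 (chr17:41624195-41624239, minus strand). The KRT14 and KRT17 stretches were identical at 97.8% of the bases and those of KRT5 and KRT80 at 75.6%, whereas NES and VIM shared 51.1%. The likeness reached further in some members. Of all 50-base windows in the transcript, 39.2% of KRT8 and 35.3% of KRT18 were also found in transcripts of other genes, among them pseudogenes such as KRT8P3 and KRT18P11. The share was 24.2% for KRT14, where KRT16 held more of them than any other gene (11.3% of all windows), 17.4% for KRT17, and 0% for VIM and NES. With 100-base windows it was 7.12% for KRT8, 6.05% for KRT14, 0.353% for KRT17 and 0% for KRT18. The authors discarded reads with several alignments, so the levels of these keratins rest on the stretches that remained, and how much was lost depends on the read length, which was not given in the sources used here.

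In the deposited annotation (hg19) VIM lies on chromosome 10 (17270258 to 17279592, plus strand) and NES on chromosome 1 (156638556 to 156647189, minus strand). The type II genes KRT7, KRT80, KRT5 and KRT8 lie on chromosome 12, from the start of KRT80 at 52562780 to the end of KRT8 at 53343650. KRT18, although a type I gene, sits next to KRT8 (53342843 to 53346685) on the opposite strand, and the annotated transcripts of the neighbours overlap by 808 bases. The other type I members, KRT19, KRT14 and KRT17, lie on chromosome 17 between 39679869 and 39780882. Whether strand was used in counting was not stated, so reads in the overlap of KRT8 and KRT18, and reads in the 1727 bases that VIM shares with VIM-AS1, could not be assigned with certainty. VIM-AS1 itself was listed at 0.28 to 0.72 RPKM. A value covers all exons of a gene, UTRs included.

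Levels are given as RPKM, the deposited reads per unit of transcript length and of library size, which allows genes to be compared within a library. The libraries held between 26383920 and 45692298 reads, and 3 reads, at or under which a gene was not read as detected, corresponded to 0.0657 to 0.114 CPM (reads scaled to the library total). In no group did the counts of the replicates agree within sampling noise, so each library was counted as a sample of its own. Differences between groups were tested on the counts with DESeq2, and a gene was called when its adjusted P was under 0.05 and its change at least 1.5-fold. The comparisons with UT share the UT libraries, and those with Ni-E or Ni-W likewise share libraries, so they are not independent of each other. Whether a message rose per cell or in a larger share of the cells cannot be told apart in such bulk samples.

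The label of the cells was checked against defining markers. Of 9 markers of bronchial epithelium, only KRT8 and KRT18 were abundant. EPCAM, a surface molecule of epithelia, was at 0.95 to 1.79 RPKM, CDH1, which encodes E-cadherin, at 0.01 to 0.11, and ESRP1, a splicing regulator of epithelial cells, at 0 to 0.04. Of 8 fibroblast markers, COL1A1 (178 to 454 RPKM), THY1 (137 to 186) and PDGFRB (10.6 to 27.9) were abundant, while DCN had no reads in any library. The 4 markers of endothelium summed to between 0.01 and 0.14 RPKM. Those of leukocytes summed to 17.2 to 22.9 RPKM, nearly all from CD68 and CD14. Against UT, CD14 was 2.44-fold higher in Ni-W and 2.35-fold higher in HCl3. CD68, which made up most of the sum, was lower, at log2 values of -0.46 in Ni-W and -0.41 in HCl3, each under 1.5-fold. PTPRC, the defining leukocyte gene, was at 0 to 0.04 RPKM. The 5 markers of ciliated or secretory cells that were listed summed to 27.8 to 48.9 RPKM, nearly all from TUBA1A.

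Vimentin was the most abundant member by far, and its level was lower in Ni-E and Ni-W than in UT but not in HCl3. VIM was at 1417 and 1518 RPKM in the replicates of UT, at 992 and 827 in Ni-E, at 816 and 992 in those of Ni-W, and at 1515 and 1527 in HCl3. The libraries thus formed a high pair of groups and a low pair, with no overlap between them, and within each pair the groups overlapped. VIM ranked 5th to 20th among all genes in UT and HCl3 and 14th to 39th in Ni-E and Ni-W. Its log2 fold change against UT was -0.74 ± 0.12 (SE) in Ni-E (DESeq2 adjusted P = 5.77e-08) and -0.73 ± 0.11 in Ni-W (DESeq2 adjusted P = 3.14e-09), so that the level fell by 40.3% and by 39.9%. In HCl3 it was -0.00 ± 0.09 (DESeq2 adjusted P = 0.983), with a 95% interval of 0.888 to 1.12-fold. HCl3 exceeded Ni-W by 0.73 ± 0.09 (DESeq2 adjusted P = 1.76e-14) and Ni-E by 0.73 ± 0.09 (DESeq2 adjusted P = 2.24e-13), and Ni-W and Ni-E differed by -0.01 ± 0.12 (DESeq2 adjusted P = 0.981). Without replicate 2 of Ni-E, the difference between HCl3 and Ni-E was 0.58, just under 1.5-fold. The summed level of the fibroblast markers was likewise lower in Ni-E (325 to 501 RPKM) and Ni-W (398 to 413) than in UT (514 to 580), and was highest in HCl3 (641 to 670). With a mean of at least 1 RPKM were 3 of the 8 markers in UT, Ni-E and Ni-W and 4 in HCl3, and the part of these markers in the VIM result was not tested. COL1A1 made up most of the sum, and the markers did not move as one. In Ni-W, COL1A1 fell by 0.69 on the log2 scale against UT, while THY1 (-0.14), PDGFRB (0.11) and COL1A2 (0.00) were not called. In Ni-E, PDGFRB (-0.78) and COL1A2 (-2.69) fell and LUM (2.88) rose. COL1A1, at 178 and 337 RPKM in Ni-E, was not called, and its higher Ni-E library lay just under the lower UT value of 338.

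**Figure D1:**
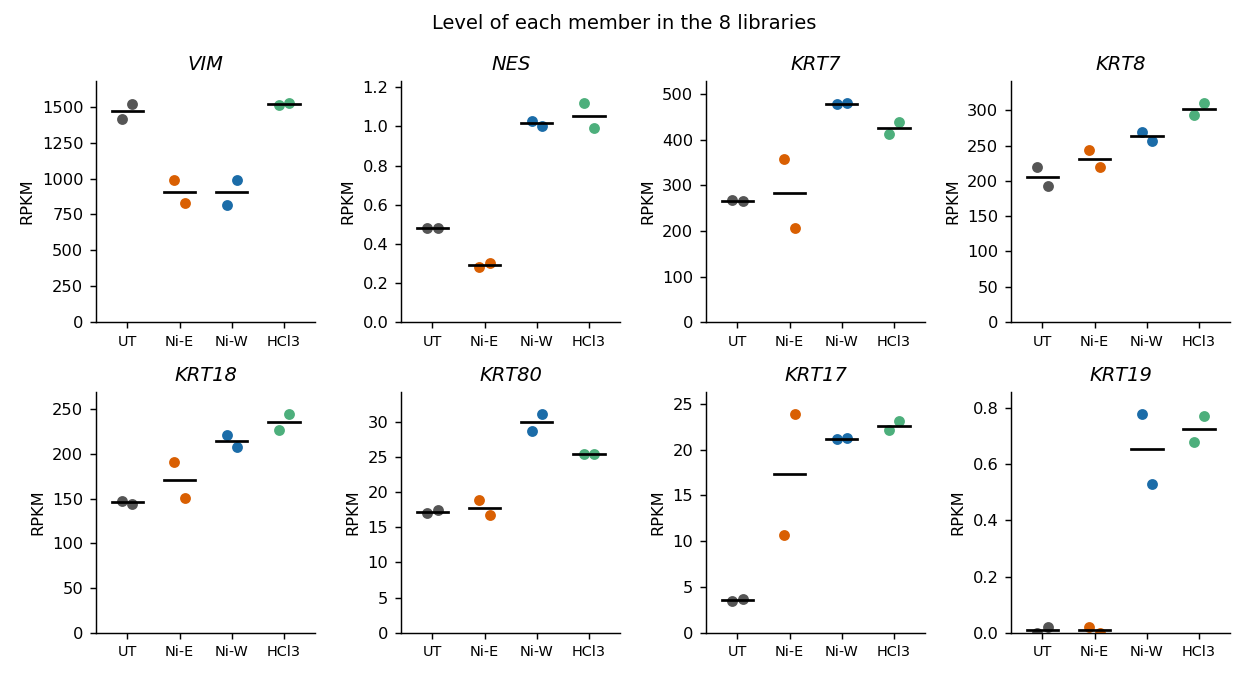
RPKM (vertical axes, each from 0) of the 8 members with more than 3 reads in any library, by group; each point is a library and each line the mean of 2. VIM is low in Ni-E and Ni-W and high in UT and HCl3, while KRT17, KRT19 and NES are highest in Ni-W and HCl3, apart from replicate 2 of Ni-E for KRT17 (23.9 RPKM).

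Nestin was a rare message that had its lowest values in Ni-E and was about doubled in Ni-W and HCl3. NES stood at 0.48 RPKM in both UT libraries, at 0.28 and 0.30 in Ni-E, at 1.03 and 1.00 in those of Ni-W, and at 1.12 and 0.99 in HCl3, from 61 to 294 reads per library. UT lay between the low Ni-E values and the high values of Ni-W and HCl3, and the last pair overlapped. Against UT, NES rose by 1.03 ± 0.27 on the log2 scale in the Ni-W cells (DESeq2 adjusted P = 0.000817) and by 1.07 ± 0.26 in HCl3 (DESeq2 adjusted P = 0.000306). These calls rested on both replicates. Without 1 of the Ni-W libraries, the adjusted P was 0.102 or 0.147 at log2 values of 1.05 and 1.03, and without 1 of the HCl3 libraries it was 0.0738 or 0.162 at 1.16 and 0.99. In Ni-E the value was -0.79 ± 0.38 (DESeq2 adjusted P = 0.167), which the edgeR quasi-likelihood test placed just past the threshold (adjusted P = 0.0498), as did the fit of all 8 libraries (-0.79, DESeq2 adjusted P = 0.0186). The contrast with Ni-E was larger, at 1.81 ± 0.30 in Ni-W (DESeq2 adjusted P = 1.19e-08) and 1.85 ± 0.29 in HCl3 (DESeq2 adjusted P = 2.94e-09). VIM and its partner NES therefore had different orders of groups, with a low VIM level and a high NES level in Ni-W.

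The 250 bases before the transcription start of VIM and NES are shown because these partners moved apart in Ni-W (RefSeq, GRCh38.p14; VIM at chr10:17227991-17228240, plus strand; NES at chr1:156677408-156677657, minus strand). Capitals mark GC boxes (GGGCGG, or CCGCCC on the other strand).
VIM: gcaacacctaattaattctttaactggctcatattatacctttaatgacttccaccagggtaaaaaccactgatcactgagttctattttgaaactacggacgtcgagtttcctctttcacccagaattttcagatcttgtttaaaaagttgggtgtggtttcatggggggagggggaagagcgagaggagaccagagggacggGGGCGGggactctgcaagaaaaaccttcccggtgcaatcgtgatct
NES: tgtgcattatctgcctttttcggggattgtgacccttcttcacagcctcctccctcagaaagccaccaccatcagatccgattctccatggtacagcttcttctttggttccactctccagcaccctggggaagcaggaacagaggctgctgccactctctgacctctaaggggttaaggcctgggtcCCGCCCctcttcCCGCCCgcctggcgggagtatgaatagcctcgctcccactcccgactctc
VIM has a GC box that begins 46 bases before the start, and NES has GC boxes at 62 and 50 bases before it. NES also has GC boxes at 23 and 28 bases after the start, outside the stretch shown. This motif was found in 45% of 35116 RefSeq promoter windows, on either strand, and so is common. In these windows, which also take in the first 50 transcribed bases, neither promoter held the TATA box (TATAAA, in 11.5% of the promoters), the CCAAT box (34.6%), the AP-1 site (TGACTCA, 4.95%) or the E-box letters CACCTG (20.6%). The hypoxia response core ACGTG, found in 21.4%, occurred in VIM at 9 bases after the start, outside the stretch shown, and was not found in NES. The matches describe letters only, since no factor was measured here.

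Among the type II keratins, KRT7 was the most abundant and was highest in Ni-W. KRT7 was at 267 and 265 RPKM in UT, at 358 and 207 in Ni-E, at 478 and 481 in those of Ni-W, and at 412 and 438 in HCl3. The Ni-E libraries lay on either side of UT, whereas every Ni-W and HCl3 library lay above all those of UT and Ni-E. KRT7 rose against UT by 0.81 ± 0.09 on the log2 scale in the Ni-W cells (DESeq2 adjusted P = 1.09e-16) and by 0.62 ± 0.09 in HCl3 (DESeq2 adjusted P = 2.28e-11). In Ni-E the difference was 0.04 ± 0.40 (DESeq2 adjusted P = 0.976), and its 95% interval of 0.592 to 1.78-fold includes changes of the size seen in Ni-W. Against Ni-E the Ni-W value was 0.76 ± 0.41 (DESeq2 adjusted P = 0.131), and it was called by the edgeR quasi-likelihood test (adjusted P = 0.0163), with all 8 libraries in one fit (adjusted P = 0.0216), and, at 1.23, without replicate 1 of Ni-E. The HCl3 call was lost with all 8 libraries in one fit (adjusted P = 0.0815) and, at 0.58, without replicate 2 of HCl3.

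KRT8, the type II partner of KRT18, differed least between groups. Its levels were 220 and 192 RPKM in the UT libraries, 243 and 220 in Ni-E, 270 and 256 in those of Ni-W, and 294 and 310 in HCl3. The groups followed in that order, with UT and Ni-E overlapping. Against UT the log2 difference was 0.12 ± 0.12 in Ni-E (DESeq2 adjusted P = 0.622), 0.32 ± 0.10 in Ni-W (DESeq2 adjusted P = 0.00852) and 0.50 ± 0.10 in HCl3 (DESeq2 adjusted P = 2.65e-06). The last pair passed the threshold on P but not that of 1.5-fold, which HCl3 reached without replicate 1 of UT (0.60).

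KRT80 was a minor type II keratin. It was at 17.0 and 17.5 RPKM in UT, at 18.9 and 16.7 in Ni-E, at 28.7 and 31.2 in those of Ni-W, and at 25.4 in both HCl3 libraries. UT and Ni-E overlapped, HCl3 was above both, and Ni-W was above HCl3. KRT80 rose in Ni-W by 0.76 ± 0.11 against UT (DESeq2 adjusted P = 1.29e-10) and by 0.75 ± 0.11 against Ni-E (DESeq2 adjusted P = 1.89e-10). In HCl3 it differed from UT by 0.50 ± 0.10 (DESeq2 adjusted P = 4.31e-06), under 1.5-fold. KRT5, the type II keratin of basal cells, had 3 reads in replicate 1 of Ni-W, 1 read in replicate 1 of HCl3 and 0 in the other 6 libraries, so no fold was computed for it.

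KRT18 was the main type I keratin and moved much as KRT8 did. It was at 148 and 144 RPKM in UT, at 191 and 151 in Ni-E, at 222 and 208 in those of Ni-W, and at 227 and 245 in HCl3. No groups overlapped, although replicate 2 of Ni-E lay close to UT. KRT18 rose in HCl3 against UT by 0.64 ± 0.09 on the log2 scale (DESeq2 adjusted P = 9.45e-11), and by 0.58, under 1.5-fold, without replicate 2 of HCl3. In Ni-W the difference of 0.52 ± 0.10 (DESeq2 adjusted P = 1.69e-06) was under 1.5-fold, and in Ni-E it was 0.17 ± 0.13 (DESeq2 adjusted P = 0.475). Ni-W and HCl3 differed by 0.12 ± 0.07 (DESeq2 adjusted P = 0.317), so the higher HCl3 values were within the error of the comparison.

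KRT17 had the largest change among the members that UT cells also expressed. It was at 3.47 and 3.69 RPKM in UT, at 10.7 and 23.9 in Ni-E, at 21.2 and 21.3 in those of Ni-W, and at 22.2 and 23.1 in HCl3. Every treated library was above both UT libraries, and the Ni-E replicates stood on either side of the Ni-W values, the higher of them above every other library. KRT17 rose against UT by 2.21 ± 0.56 in Ni-E (4.63-fold, DESeq2 adjusted P = 0.00166), by 2.53 ± 0.16 in Ni-W (5.80-fold, DESeq2 adjusted P = 1.64e-54) and by 2.61 ± 0.15 in HCl3 (6.10-fold, DESeq2 adjusted P = 2.85e-64). The Ni-E call was lost without replicate 1 or 2 of UT (adjusted P = 0.144 and 0.191), and the Ni-E value was 2.67 without replicate 1 of Ni-E and 1.54 without replicate 2. Ni-W and Ni-E differed by 0.31 ± 0.54 (DESeq2 adjusted P = 0.711), with a 95% interval from 0.593 to 2.58-fold. Without replicate 2 of Ni-E this difference was 0.97 and was called, and without replicate 1 it was -0.15.

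KRT19, the simple-epithelial type I keratin of airways, was nearly silent in UT and Ni-E and detected in Ni-W and HCl3. It had 0 and 1 reads in the UT libraries, 1 and 0 in those of Ni-E, 59 and 27 in those of Ni-W, and 41 and 49 in HCl3, or at most 0.78 RPKM. Detection thus set Ni-W and HCl3, which overlapped, apart from the others, though the level stayed far under that of KRT18. Per total reads, the ratio to UT was 71.5 in Ni-W (exact 95% interval 12.5 to 2855) and 76.4 in HCl3 (13.4 to 3051), intervals that cover counting error only and are wide because they rest on a single read in UT. KRT19 was called in Ni-W (DESeq2 adjusted P = 0.000651) and HCl3 (DESeq2 adjusted P = 0.000356) against UT, and the Ni-W call was lost without replicate 1 of Ni-W (adjusted P = 0.0611). Against Ni-E the corresponding DESeq2 adjusted P values were 0.000552 and 0.00035. KRT14, the type I keratin of basal cells, had 1 and 3 reads in Ni-W, 0 and 1 in Ni-E, and 0 in each UT and HCl3 library, which is too few for a fold. The basal pair KRT5 and KRT14 was thus at or under 3 reads in all 8 libraries.

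**Figure D2:**
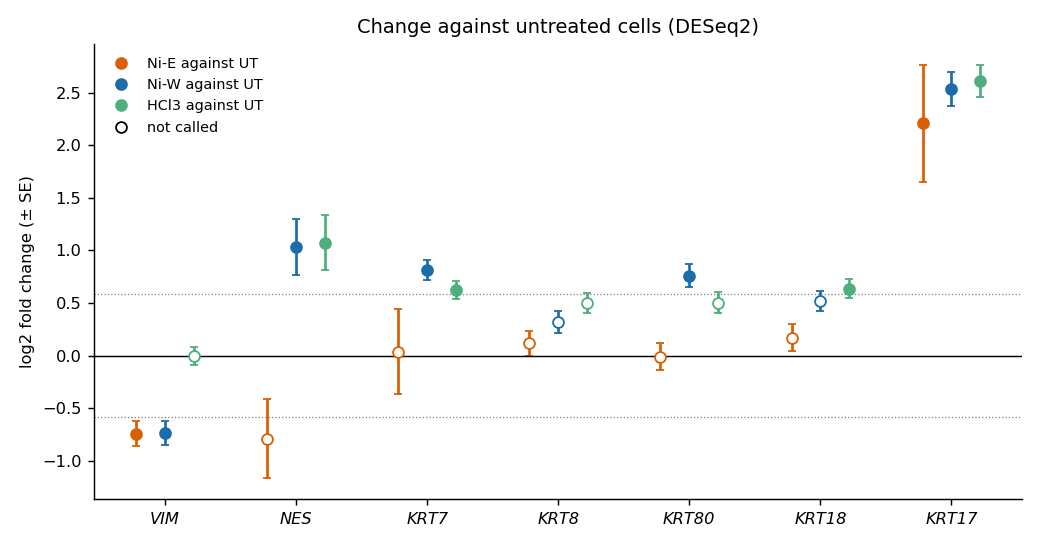
log2 fold change ± SE against UT from DESeq2 for 7 members in Ni-E, Ni-W and HCl3; filled points were called and dotted lines mark 1.5-fold. KRT17 is raised in all 3 groups, VIM is lowered in Ni-E and Ni-W (-0.74 and -0.73) and at -0.00 in HCl3; KRT19 is left out because UT had 1 read.

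The calls were then counted over the members. The members, like the gene lists further below, were chosen with earlier results of these data known. Their counts beside the shares of all genes are therefore a description. In Ni-E against UT, 2 of the 7 members tested were called, KRT17 higher and VIM lower, where 5.8% of 14478 genes tested were called (3.75% higher and 2.05% lower). In Ni-W against UT, 6 of 8 were called (KRT7, KRT17, KRT19, KRT80 and NES higher, VIM lower), where the share of all genes was 15.7% (10.9% higher, 4.83% lower). In HCl3 against UT, 5 of 8 were called, all higher (KRT7, KRT17, KRT18, KRT19 and NES), with 14.8% of all genes called (11.1% higher, 3.74% lower). The median log2 fold change of the members tested was 0.04 in Ni-E, 0.79 in those of Ni-W and 0.63 in HCl3, beside medians of -0.00, 0.01 and 0.01 over all genes tested. The members untested in a comparison were KRT5 and KRT14, and in Ni-E also KRT19, for lack of reads. With no fold threshold, the members with an adjusted P under 0.05 numbered 2 (Ni-E), 8 (Ni-W) and 7 (HCl3) against UT, where the shares of all genes were 11.6, 31.1 and 31.4%.

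The treated groups were also compared with each other. In Ni-W against Ni-E, 3 of 8 members were called, all higher (NES, KRT19 and KRT80), where 20.5% of all genes were called (11.7% higher, 8.81% lower). In HCl3 against Ni-E, the 3 called were NES, KRT19 and VIM, all higher, beside 17.1% of all genes (10.4% higher, 6.78% lower). This comparison turned on single Ni-E libraries: KRT7 (1.04), KRT18 (0.65) and KRT80 (0.61) were also called without replicate 1, and KRT17 (1.05) without replicate 2. In HCl3 against Ni-W, VIM was the 1 member called, beside 4.77% of all genes (3.1% higher, 1.66% lower). In that comparison KRT7 (-0.19 ± 0.07, DESeq2 adjusted P = 0.0385) and KRT80 (-0.25 ± 0.08, DESeq2 adjusted P = 0.0159) were lower and KRT8 was higher (0.18 ± 0.07, DESeq2 adjusted P = 0.0499), each by under 1.5-fold. NES (0.779 to 1.36-fold), KRT17 (0.920 to 1.21-fold) and KRT19 (0.572 to 2.09-fold) had 95% intervals that include no difference. By P alone, 4 members passed here, 4 in the Ni-W to Ni-E comparison and 6 in the HCl3 to Ni-E comparison, beside 16.6, 39.2 and 37.6% of all genes.

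The balance between vimentin and keratin was then read within each library, which needs no scaling between libraries. The summed level of the 8 keratins was 655 and 622 RPKM in the UT libraries, 822 and 618 in Ni-E, 1020 and 998 in those of Ni-W, and 981 and 1043 in HCl3. VIM exceeded this sum 2.16 and 2.44 times in UT, 1.21 and 1.34 times in Ni-E, and 1.54 and 1.46 times in HCl3. In Ni-W it was under the sum, at ratios of 0.800 and 0.994. No groups overlapped, and the order was UT, HCl3, Ni-E and Ni-W. The groups reached lower ratios through different genes, since the ratio in Ni-E was lower than in UT with a lower VIM level and a keratin sum that overlapped UT, in HCl3 with a VIM level that overlapped UT and a higher keratin sum, and in Ni-W with both. With 2 libraries against 2, an exact permutation test of such a ratio cannot reach a P under 0.05, so these ratios are a description. The ratios were also not corrected for GC content, which is lower in VIM than in the keratin transcripts and whose trends across genes are given below.

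**Figure D3:**
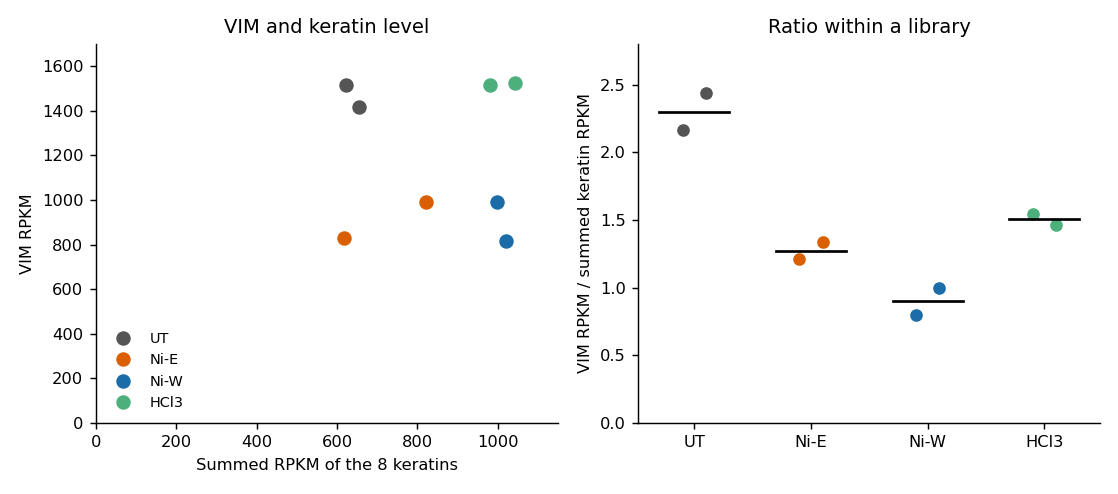
Left, VIM RPKM against the summed RPKM of the 8 keratins, a point per library. Right, their ratio by group with the mean as a line: all ratios under UT (2.16 and 2.44), with those of Ni-W lowest (0.800 and 0.994).

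The make-up of the keratin messages was read within each library too. KRT7, KRT8 and KRT18 together held between 93.4 and 96.9% of the keratin members' RPKM in every library. The type II members exceeded the type I members 2.53 to 3.35 times in summed RPKM, with the lowest ratio in replicate 2 of Ni-E. These sums leave out KRT10, a type I keratin at 17.09 to 21.48 RPKM. They also leave out reads with several alignments, so whether the partners were balanced cannot be read from them. KRT7 stood above KRT8 in 7 of the 8 libraries, by 1.22 to 1.87 times, and below it in replicate 2 of Ni-E (0.942 times). KRT17 made up 2.29 and 2.49% of the summed RPKM of the type I members in the UT libraries and 5.30 and 13.7% in Ni-E. The share was 8.69 and 9.27% in the Ni-W libraries and 8.89 and 8.59% in HCl3. Replicate 2 of Ni-E thus had the lowest KRT7 and the highest KRT17 of its group, and the Ni-E values of these genes depend on it.

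**Figure D4:**
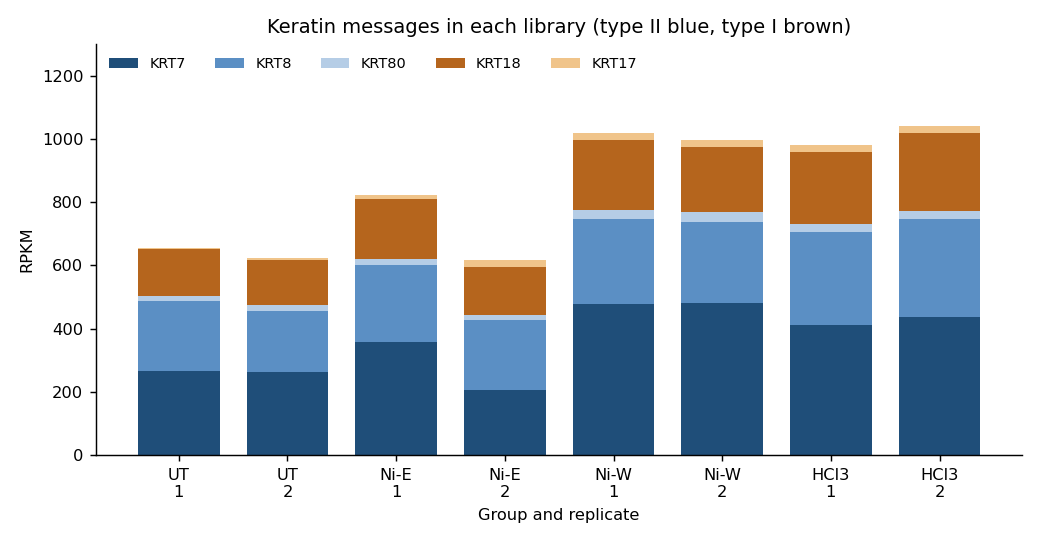
Stacked RPKM of the 5 keratin members above 1 RPKM in each of the 8 libraries, type II in blue and type I in brown. KRT7, KRT8 and KRT18 make up nearly all of every bar, the bars of Ni-W and HCl3 are the tallest (981 to 1043 RPKM), and the Ni-E replicates differ (822 and 618 RPKM).

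GC content was examined because it moved with some of the comparisons. The keratin and NES transcripts are rich in GC (55.7 to 62%, where the median of expressed genes was 48%), and VIM has 46.9%. Across genes, Spearman's rho between GC content and the log2 fold change was 0.394 in Ni-E against UT, 0.047 in Ni-W against UT, 0.281 in HCl3 against UT and 0.381 in HCl3 against Ni-W; genes are not independent replicates. Once these trends and those with transcript length had been taken out, KRT17 was at 2.42 in Ni-W, with 2.41 in HCl3, and VIM at -0.86 and -0.13. In Ni-E against UT, which had the largest rho of these, KRT17 and VIM kept their calls. KRT7 (0.31) and KRT18 (0.48) in HCl3 and KRT80 (0.53) in Ni-W then fell under 1.5-fold and were no longer called. With the replicate block in the same fit, NES was at 0.77 in Ni-W (DESeq2 adjusted P = 0.071) and 0.70 in HCl3 (DESeq2 adjusted P = 0.126), which was no longer a call.

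**Figure D5:**
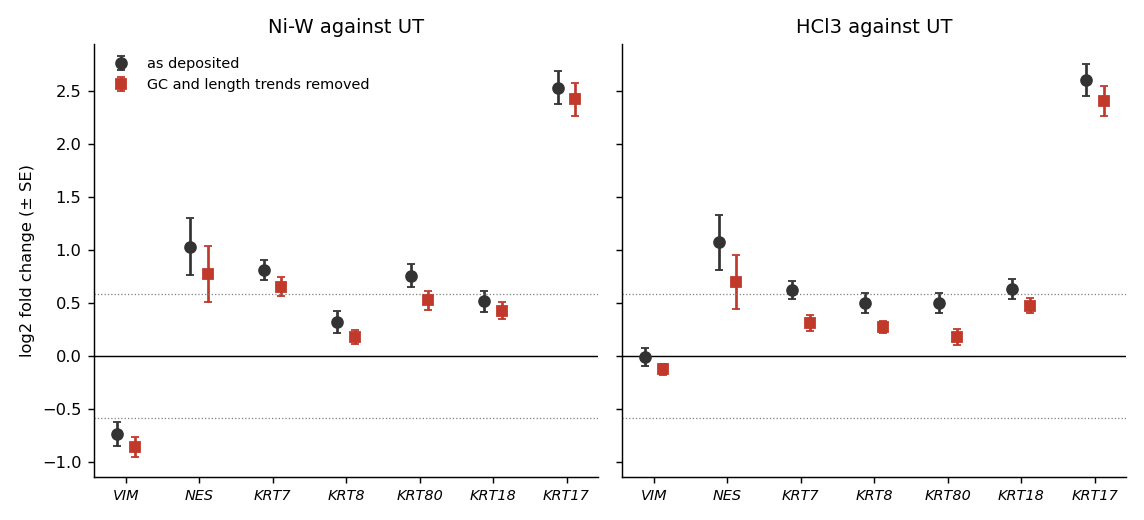
log2 fold change ± SE of 7 members against UT, from the counts as deposited (circles) and with trends of GC content and transcript length removed (squares); dotted lines mark 1.5-fold. KRT17 and NES stay above the line in both groups, and KRT7 in HCl3 moves from 0.62 to 0.31.

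The rest of the family was largely silent. Of 24 other type I keratins, 6 had more than 3 reads in some library and 2 averaged at least 1 RPKM, KRT10 (17.1 to 21.5 RPKM) and KRT34 (0.81 to 1.45 RPKM). Of 22 other type II keratins, 4 had more than 3 reads in some library and none averaged 1 RPKM. None of these genes was called in any of the 6 comparisons. The members held between 96.5 and 98.0% of all keratin RPKM. Of 13 other intermediate filament genes, SYNM (synemin), another large partner of vimentin, was the 1 called against UT. It was 1 of 10 tested in Ni-W and 1 of 10 in HCl3, where 15.7 and 14.8% of all genes were called. In Ni-E 8 were tested and none was called, beside 5.8% of all genes. SYNM was at 1.72 and 1.92 RPKM in the UT libraries, 1.32 and 1.56 in Ni-E, 3.90 and 4.36 in those of Ni-W, and 3.79 and 3.62 in HCl3. It rose against UT by 1.15 ± 0.15 in Ni-W (DESeq2 adjusted P = 1.38e-12) and by 0.98 ± 0.14 in HCl3 (DESeq2 adjusted P = 2.54e-10), and like NES it had its lowest values in Ni-E.

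Messages for proteins that anchor keratins to desmosomes changed as well. Of 12 linkers of intermediate filaments tested against UT, 2 rose (DSP and PKP2) and 1 fell (DST) in Ni-E, where 3.75 and 2.05% of all genes rose and fell. In Ni-W 5 rose (DSP, PPL, PKP1, PKP2 and JUP), beside 10.9% of all genes, and in HCl3 4 rose (DSP, PPL, PKP1 and JUP), beside 11.1%, and none fell in either. DSP (desmoplakin), which ties keratin filaments to the desmosome, was at 0.23 and 0.34 RPKM in the UT libraries, 2.19 and 1.93 in Ni-E, 5.49 and 5.72 in those of Ni-W, and 8.31 and 8.49 in HCl3. Its log2 fold change against UT was 2.86 ± 0.22 in Ni-E (DESeq2 adjusted P = 1.84e-34), 4.33 ± 0.17 in Ni-W and 4.86 ± 0.16 in HCl3. PPL (periplakin) rose by 2.88 ± 0.31 in Ni-W (DESeq2 adjusted P = 3.51e-18) and 3.19 ± 0.28 in HCl3 (DESeq2 adjusted P = 4.57e-27), and in Ni-E it was at -1.25 ± 0.70 (DESeq2 adjusted P = 0.27). JUP (plakoglobin) rose by 1.42 ± 0.11 in Ni-W (DESeq2 adjusted P = 1.08e-36) and by 0.82 ± 0.10 in HCl3 (DESeq2 adjusted P = 4.98e-14). PLEC (plectin), which links vimentin and keratin to other parts of the cytoskeleton, was not called in any comparison with UT, with its largest difference in Ni-E (-0.58 ± 0.12, DESeq2 adjusted P = 6.45e-05), just under 1.5-fold. Of 13 transcription factors of epithelial genes, 7 were tested in Ni-E and 8 each in Ni-W and HCl3. The test called 1 higher and 1 lower in Ni-E (TFAP2C and TFAP2A), 1 and 1 in Ni-W (ELF3 and GRHL1), and 2 and 1 in HCl3 (ELF3 and TFAP2C, and GRHL1). The shares of all genes called in either direction were 5.8, 15.7 and 14.8%. With so few factors tested, no result about them is read from these counts. ELF3, an epithelial factor of the ETS family, was at 4.66 and 3.27 RPKM in the UT libraries, 2.29 and 6.38 in Ni-E, 17.9 and 14.5 in those of Ni-W, and 9.18 and 10.3 in HCl3.

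Genes with the pattern most like the 3 members of widest range were searched among 12015 expressed genes over the 8 libraries, by the root mean square difference of centred log2 normalised counts. The nearest to KRT19 were VWA1 (0.357), ADCY1 (0.524) and PDE1C (0.528). Those of KRT17 were EBI3 (0.242), PTPRU (0.321) and SRPX (0.355), and those of NES were FANCF (0.0976), SLC22A15 (0.113) and C7orf31 (0.118). The distances are smallest for NES, whose own range over the group means was 1.84 on the log2 scale, against 2.60 for KRT17 and 4.89 for KRT19.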

How the data were processed

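RNA-Seq counts of 8 BEAS-2B libraries were grouped by the sample labels. The authors used STAR 2.4 with hg19, discarded reads that aligned more than once, and derived the deposited counts and RPKM per RefSeq gene with BioWardrobe. RPKM values were deposited with 2 decimals. Labels name TruSeq kits, and the read length and the use of strand were not given in the sources used here. Pairs of groups were tested on the counts of their 4 libraries with DESeq2 1.42.0 in R 4.3.3 (Wald test on both sides, its default filter on low means, and Benjamini-Hochberg adjustment over all genes tested), with the thresholds of the study, an adjusted P under 0.05 and 1.5-fold. With 2 libraries a group, the spread is shared across genes. Low values have more counting error. The floors and the exact intervals of the KRT19 ratios to UT cover counting error only. The other intervals were taken from the SE of DESeq2, which also includes the estimated spread between replicates.

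Alternatives were edgeR 4.0.16, TMM size factors, a mean count of at least 10, no fold threshold, all 8 libraries in one fit, libraries thinned to 26383920 reads, the replicate block, removal of GC and length trends, and each replicate left out. The crossed block was added after the data were seen. The members and the gene lists were chosen with earlier results of these data known. Apart from the members, genes were named as the 3 of each list with the largest change in Ni-W among those called against UT whose normalized counts averaged 50 or more, and as the 3 nearest in pattern to 3 members. Other genes of a list could be named in the account of that list. GC content came from GENCODE transcripts, with a value for 98.3% of expressed genes. Scripts were tested on simulated data. No genome of the build hg19 was used, so sequences carry GRCh38 coordinates and gene positions hg19 ones. Promoter windows of the other keratins and chromatin data were not analysed here, and the rod sequences of 2 members are not reported here.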

Additional observations from a re-analysis of the deposited data

Results flagged for a closer look

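The difference between HCl3 and Ni-W in VIM stood out, because both groups carried the same treatment text and their changes against UT differed when compared directly. VIM was higher in HCl3 than in Ni-W by 0.73 ± 0.09 on the log2 scale (SE, 2 libraries a group, DESeq2 adjusted P = 1.76e-14), in both HCl3 libraries. The value ranged from 0.59 to 0.89 under the alternatives and was called under each of them. The fibroblast marker COL1A1 was also higher in HCl3, at 431 and 454 RPKM against 218 and 245 in Ni-W. The markers did not move as one. COL1A2 was higher too, by 3.21 on the log2 scale, while THY1 (0.27) and PDGFRB (0.20) were not called. LUM had 0 and 1 reads in HCl3 against 13 and 5 in Ni-W. The part of these markers in the VIM result was not tested. The experiment numbers of the labels, 3 and 4 in HCl3 and none in Ni-W, cannot be told apart from the groups. Groups of 2 libraries are too small to be tested for outlying samples.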

How the results depend on the processing

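Each member's log2 fold change was recomputed under 13 or 14 alternatives per comparison. Of 634 values, 592 kept their side of the thresholds, 19 lost a call, 23 gained one, and none of those called changed sign. Of the 592, 25 changed sign with no call either way, from absolute values of at most 0.38 to absolute values of at most 0.43. The number of members called in Ni-E against UT was 2, with 3 by edgeR and 3 with all 8 libraries in one fit, and between 1 and 2 when a replicate was left out (1 without replicate 1 or 2 of UT). In HCl3 against UT it was 5, and 3 with GC and length trends removed, 2 with these and the replicate block, and 2 to 6 when a replicate was left out (2 without replicate 2 of HCl3). In HCl3 against Ni-E it was 3, and 6 with no fold threshold, and 3 to 6 when a replicate was left out (6 without replicate 1 of Ni-E). In HCl3 against Ni-W it was 1, and 4 with no fold threshold. In Ni-W against UT, KRT80 lost its call with GC and length trends removed, and KRT80 and NES lost theirs with these and the replicate block. The NES and KRT19 calls there also depended on the Ni-W replicates, as given with those genes above. KRT8 and KRT18 gained a call there with no fold threshold. The causes were not tested, except that dropping the fold threshold can only add calls.

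Over all genes, calls in Ni-E against UT went from 840 to 1679 with no fold threshold, 491 with the replicate block, 394 with the block and GC and length trends removed, and 356 to 620 with a replicate left out. In Ni-W against UT they went from 2484 to 4918 with no fold threshold, and 1516 to 2190 with a replicate left out. In HCl3 against UT they went from 2333 to 4945, and 1339 to 2109. In Ni-W against Ni-E they went from 3276 to 6274 with no fold threshold, and in HCl3 against Ni-E from 2734 to 5994, or 1757 to 2742 with a replicate left out. In HCl3 against Ni-W they went from 713 to 2476 with no fold threshold, 455 with the block, 438 with the block and GC and length trends removed, and 327 to 530 with a replicate left out.

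The replicate suffix pairs nothing by label. The block gave 2, 6, 5, 3, 3 and 1 members called in the 6 comparisons, the same counts as without it. Deviations of libraries with the same suffix correlated at 0.222 in Ni-W against UT, 0.001 in HCl3 against Ni-E, -0.054 in HCl3 against Ni-W, -0.116 in Ni-E against UT, -0.159 in HCl3 against UT and -0.107 in Ni-W against Ni-E. With the suffixes crossed in the last 3, 632, 1880 and 2851 genes were called, and 2, 5 and 4 members. Depth limits KRT5, KRT14 and KRT19, and 2 libraries a group limit all members.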
